A study of Homo sapiens with 6 samples.

Results

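The genes described here are 10 targets of the FOXO transcription factors, a class of genes that insulin is known to repress. They were measured in a human liver cancer line, Huh7, after treatments meant to deplete or enrich cholesterol. They are IGFBP1, PCK1, G6PC, INSR, IRS2, FOXO1, TXNIP, TSC22D3, SESN1 and SESN3. A probe set, the group of array probes that reads 1 transcript, belonged to a gene when its annotation gave that symbol alone, which left 29 of the 54613 probe sets tested and 10 of the 21299 genes. The genes were chosen by earlier results of the same arrays, in which IGFBP1 and TSC22D3 were higher with statin. For the 10 genes, every difference that involves the statin arrays is therefore a description without a p-value, and nLDL against control is the comparison that was tested. That comparison shares the control arrays that the choice also used, so its p-values are not independent of the choice. A gene chosen for low control values would lean upward in it.

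Each of the 3 groups held 2 arrays of total RNA from Huh7 cells grown in medium with 10% FBS and treated for 24 h. The control group received vehicle, the nLDL group 120 µg/ml of native LDL to enrich the cells in cholesterol, and the statin group 5 µM of a statin, an inhibitor of cholesterol synthesis, to deplete it. Insulin was not a treatment, and FOXO proteins were not measured, so the name of the gene set rests on what is known of the genes. The cells are a single tumour line, which limits them as a model of liver, and all groups shared the serum-containing medium.

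Insulin binds its receptor INSR, which acts through the adaptor proteins IRS1 and IRS2 on the kinase AKT. AKT phosphorylates FOXO proteins and keeps them out of the nucleus, so FOXO targets fall after insulin and rise in fasting, when the liver makes glucose and lowers free insulin-like growth factors. Several of the same genes also answer to other signals, such as glucocorticoids for TSC22D3 and glucose for TXNIP.

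All values are log2 levels per probe set, and differences are on the log2 scale with the standard error (SE) of the limma fit. Where a gene has several probe sets, the brightest by its 6-array mean stands for it. A probe set is called dim when that mean lies in the lowest 40% of all probe sets, below 4.23. The threshold is a Benjamini-Hochberg adjusted p of 0.05 over all probe sets, and in the statin comparisons the counts of member probe sets past it are descriptions.

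The array medians ranged from 4.85 to 4.91. On the leading principal component (45.3% of the variance) the statin arrays, at 35.8 and 24.2, stood apart from the other 4, at -17.3 to -12.5. The gap between the 3′ and 5′ control probe sets of ACTB, a sign of RNA integrity, was 1.63 and 1.64 in control, 1.62 and 1.54 with nLDL, and 2.13 and 1.92 with statin, so it moved with the statin group, while that of GAPDH lay between 0.02 and 0.10 on every array. Its part in the statin results below was not tested. Of 15 hepatocyte markers 0 passed the threshold with statin by limma, 2 having an unadjusted p under 0.05, and their mean level was 13.2 to 13.3 on every array. Over all 54613 probe sets 10271 had an unadjusted p under 0.05 with statin by limma. Of 15 markers of other cell types, 4 were dim, among them CD3E, KDR and ACTA2, 11 lay above and 4 below control with statin (median 0.17, 5 with an unadjusted p under 0.05), and the mean level of the list was 5.45 to 5.50 in control, 5.50 to 5.53 with nLDL and 5.50 to 5.62 with statin. The list's only call was KRT19, a keratin of bile duct cells, which fell by 0.85 (SE 0.08, adjusted p = 0.0062), while KRT7, another duct keratin, differed by 0.19 (adjusted p = 0.412). LYZ, the lysozyme of macrophages, was bright on all arrays, at 12.93 and 12.94 in control, 12.89 and 12.87 with nLDL, and 13.26 and 13.40 with statin, a statin difference of 0.39 (adjusted p = 0.0591), and COL3A1, a fibroblast collagen, differed by 0.38 (adjusted p = 0.0753). The part of these markers in the statin results was not tested.

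With statin, 5 of the 10 genes lay above control by more than the threshold: IGFBP1, TXNIP, TSC22D3, PCK1 and IRS2. Together they account for 9 of the 29 member probe sets, and 0 member probe sets lay below. Over all probe sets 0.956% lay higher past the same threshold (522 of 54613), and over all genes 1.49% (317 of 21299). Since the choice of genes used this comparison, nothing is read from the member count. The median difference of the 10 genes was 0.41 (range -0.02 to 1.73), beside 0.02 over all genes. In 16 of the 29 probe sets both statin arrays lay above both control arrays, as they did in 26.4% of all probe sets, and in 1 both lay below, as they did in 23.6%. In these bulk samples a change in the share of cells that express a gene and a change in RNA per cell cannot be told apart.

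The 250 bases before an annotated transcription start of 3 of these 5 genes are shown, because each stretch holds a short match to a FOXO or glucose response sequence, and they were taken from RefSeq (GRCh38.p14), written 5′ to 3′ along the gene with the matches in capitals. The match in TXNIP is GTAAACA, the core bound by forkhead proteins, followed by CACGNG, repeated after 5 bases as in a carbohydrate response element. The capitals in TSC22D3 are the forkhead core on the other strand, and in IRS2 they are CAAAACA, the core of the insulin response sequence, on the other strand.
TXNIP, chr1:145996580-145996829, minus strand: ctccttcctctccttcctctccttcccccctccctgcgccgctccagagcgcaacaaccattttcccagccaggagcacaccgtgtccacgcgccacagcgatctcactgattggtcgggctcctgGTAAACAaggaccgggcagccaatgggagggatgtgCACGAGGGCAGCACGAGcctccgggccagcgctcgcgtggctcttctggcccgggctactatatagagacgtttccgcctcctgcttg
TSC22D3, chrX:107717063-107717312, minus strand: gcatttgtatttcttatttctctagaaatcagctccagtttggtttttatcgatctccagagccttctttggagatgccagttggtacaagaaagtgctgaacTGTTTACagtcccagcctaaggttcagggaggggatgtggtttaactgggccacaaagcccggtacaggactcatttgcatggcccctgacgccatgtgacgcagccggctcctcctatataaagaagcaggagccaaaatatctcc
IRS2, chr13:109786584-109786833, minus strand: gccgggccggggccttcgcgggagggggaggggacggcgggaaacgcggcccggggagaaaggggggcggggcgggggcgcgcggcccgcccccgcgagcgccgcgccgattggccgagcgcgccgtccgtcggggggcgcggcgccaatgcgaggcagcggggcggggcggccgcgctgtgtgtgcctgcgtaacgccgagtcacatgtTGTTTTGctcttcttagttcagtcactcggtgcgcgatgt

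The forkhead core began 124 bases before the start in TXNIP and 147 bases before it in TSC22D3, and on either strand it was found in 2.98% of the 35116 windows of the same length. The insulin response core lay 40 bases before the start in IRS2 and was found in 4.3% of windows. The carbohydrate response pair lay 88 bases before the start in TXNIP and was found in 0.0456% of windows. Windows were at hand for 8 of the 10 genes, 14 in all, and IGFBP1 and PCK1 had none. The stretches shown are 1 of 2 windows of TXNIP, 1 of 4 of TSC22D3 and the 1 of IRS2. The other windows of TXNIP and TSC22D3 and those of G6PC, INSR, SESN1, SESN3 and FOXO1 held no match to these letters. Variants of the letters were not searched, so a window without a match may still hold a response sequence. The sequences searched were chosen with the windows in view, and a match is a description of letters, not evidence that a factor binds.

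IGFBP1, a secreted liver protein that binds insulin-like growth factors and is a classic insulin-repressed gene, had the largest difference with statin among the 10 genes. Its level was 4.60 and 4.87 in control, 4.36 and 4.88 with nLDL, and 6.42 and 6.52 with statin. Both statin arrays lay clear of the other 4, whose values overlapped. The difference from control was 1.73 (SE 0.17), a 3.32-fold higher level. A second, dim probe set gave 2.81 and 2.77 in control against 2.93 and 2.89 with statin, a difference of 0.12 (SE 0.08).

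PCK1, the cytosolic phosphoenolpyruvate carboxykinase that commits carbon to glucose production, was dim but also stood higher with statin. It lay at 3.36 and 3.75 in control, 3.42 and 3.61 with nLDL, and 4.32 and 4.45 with statin. The statin arrays did not overlap the others, and the difference from control was 0.83 (SE 0.14), or 1.78-fold. Its control arrays differed from each other by more than its statin arrays did.

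G6PC, the catalytic subunit of glucose-6-phosphatase that releases glucose from the liver, was dim at both probe sets and did not follow that pattern. Its brighter probe set read 3.68 and 3.57 in control, 3.80 and 4.29 with nLDL, and 3.85 and 3.90 with statin. The nLDL and statin arrays all lay above the control arrays, and the highest single value was an nLDL array. The statin difference was 0.25 (SE 0.15) there and 0.34 (SE 0.08) at the other probe set, where control read 2.43 and 2.42 and statin 2.72 and 2.80.

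Of the genes of the insulin signal itself, IRS2 was higher with statin, and INSR and FOXO1 were not past the threshold. IRS2, the adaptor through which the insulin receptor reaches AKT in liver, read 6.98 and 7.12 in control, 7.03 and 7.12 with nLDL, and 7.55 and 7.70 with statin. Its statin arrays lay above all others, by a difference from control of 0.58 (SE 0.09, 1.49-fold). The second IRS2 probe set gave 5.92 and 5.96 in control and 6.63 and 6.42 with statin, a difference of 0.58 (SE 0.11). So its probe sets gave the same size of difference at different brightness.

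INSR, the insulin receptor, read 9.81 and 9.82 in control, 9.81 and 9.77 with nLDL, and 10.12 and 9.90 with statin. Both statin arrays lay above the others, yet they differed from each other by about as much as from control, and the difference was 0.19 (SE 0.09). Its other 4 probe sets differed by 0.06 to 0.22. FOXO1, the factor that insulin excludes from the nucleus and that is also counted among its own targets, read 7.13 and 7.01 in control, 6.95 and 7.16 with nLDL, and 7.10 and 7.003 with statin. Its groups overlapped, and the difference was -0.02 (SE 0.10), with -0.07 and -0.03 at its other probe sets. That sign was not stable, turning to 0.02 when the arrays were quantile normalised again.

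TXNIP, an arrestin-related protein that inhibits thioredoxin and glucose uptake, was higher with statin at each of its 3 probe sets. The brightest read 7.98 and 7.98 in control, 7.99 and 8.20 with nLDL, and 9.27 and 9.18 with statin. The statin arrays stood well apart, with a difference from control of 1.25 (SE 0.09, 2.38-fold). The next read 7.13 and 7.01 in control, 7.13 and 7.43 with nLDL, and 8.42 and 8.19 with statin, a difference of 1.24 (SE 0.13). The dimmest of the 3 differed by 0.93 (SE 0.11).

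TSC22D3, also called GILZ, is a leucine zipper protein known for induction by glucocorticoids and by FOXO3. It read 8.31 and 8.30 in control, 8.14 and 8.09 with nLDL, and 9.31 and 9.36 with statin, so the 3 groups did not overlap and statin and nLDL lay on opposite sides of control. The statin difference was 1.03 (SE 0.08, 2.04-fold). A second probe set, whose design may also match related transcripts, read 5.95 and 5.83 in control and 6.42 and 6.59 with statin, a difference of 0.61 (SE 0.09). The last was dim and differed by 0.08 (SE 0.09), and its statin arrays at 3.73 and 3.56 overlapped the control arrays at 3.58 and 3.55.

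**Figure D1:**
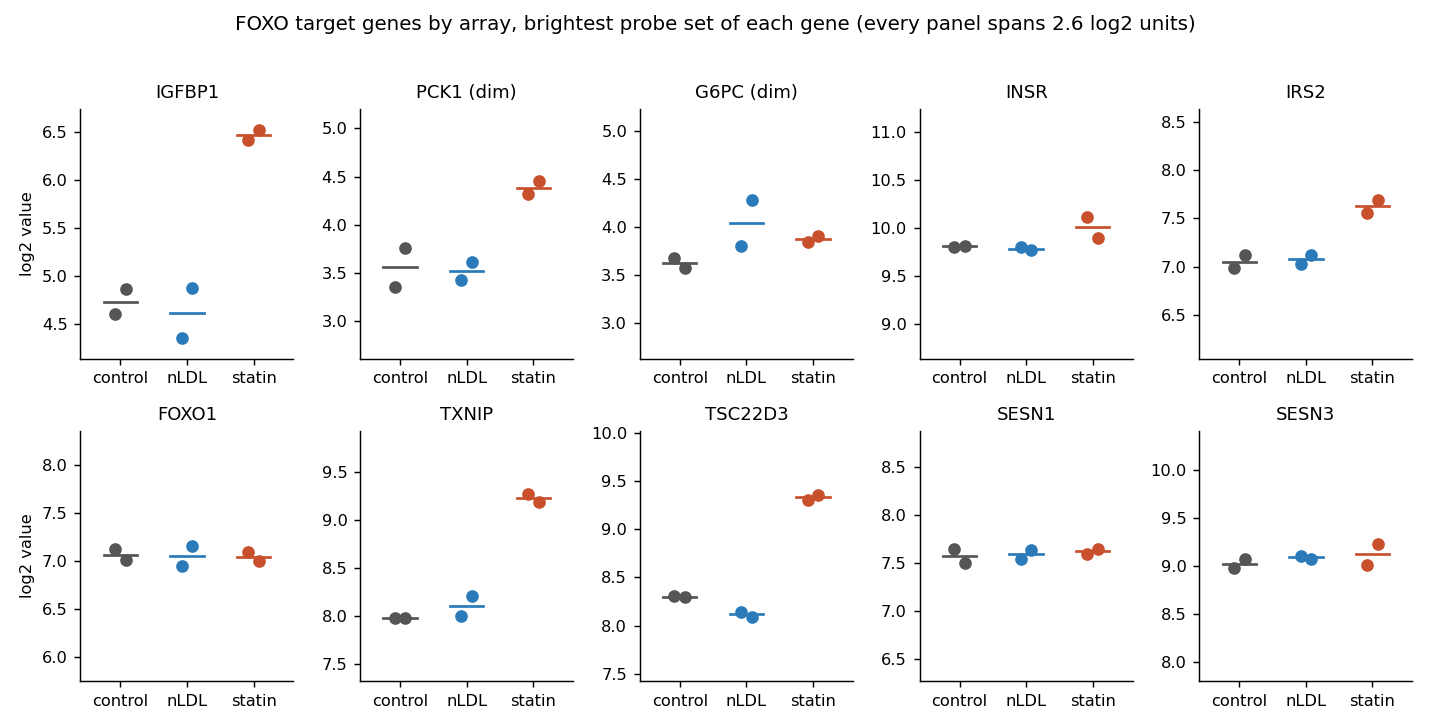
Log2 level of each of the 10 genes on the 6 arrays at its brightest probe set, with each array as a point and the group mean as a line. The statin points of IGFBP1, PCK1, IRS2, TXNIP and TSC22D3 lie above all control and nLDL points, while those of FOXO1, SESN1 and SESN3 overlap them.

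The sestrins, stress proteins that restrain the growth kinase mTORC1, showed no difference past the threshold. SESN1 read 7.65 and 7.50 in control, 7.55 and 7.64 with nLDL, and 7.59 and 7.65 with statin, a statin difference of 0.05 (SE 0.09). SESN3 read 8.98 and 9.08 in control, 9.11 and 9.08 with nLDL, and 9.01 and 9.23 with statin, a difference of 0.10 (SE 0.10). For both genes the groups overlapped. The other 6 probe sets of SESN3, of which 5 were dim, differed by -0.09 to 0.13.

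Within genes the probe sets did not always move together. All 3 probe sets of TXNIP and both of IRS2 were past the threshold, against 1 of 2 for IGFBP1 and 2 of 3 for TSC22D3, where the remaining ones were dim. Averaging all probe sets of a gene gave a statin difference of 1.14 for TXNIP, 0.93 for IGFBP1 and 0.57 for TSC22D3. As a description, the same 5 genes stayed past the threshold, on arrays that the choice of genes had used.

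**Figure D2:**
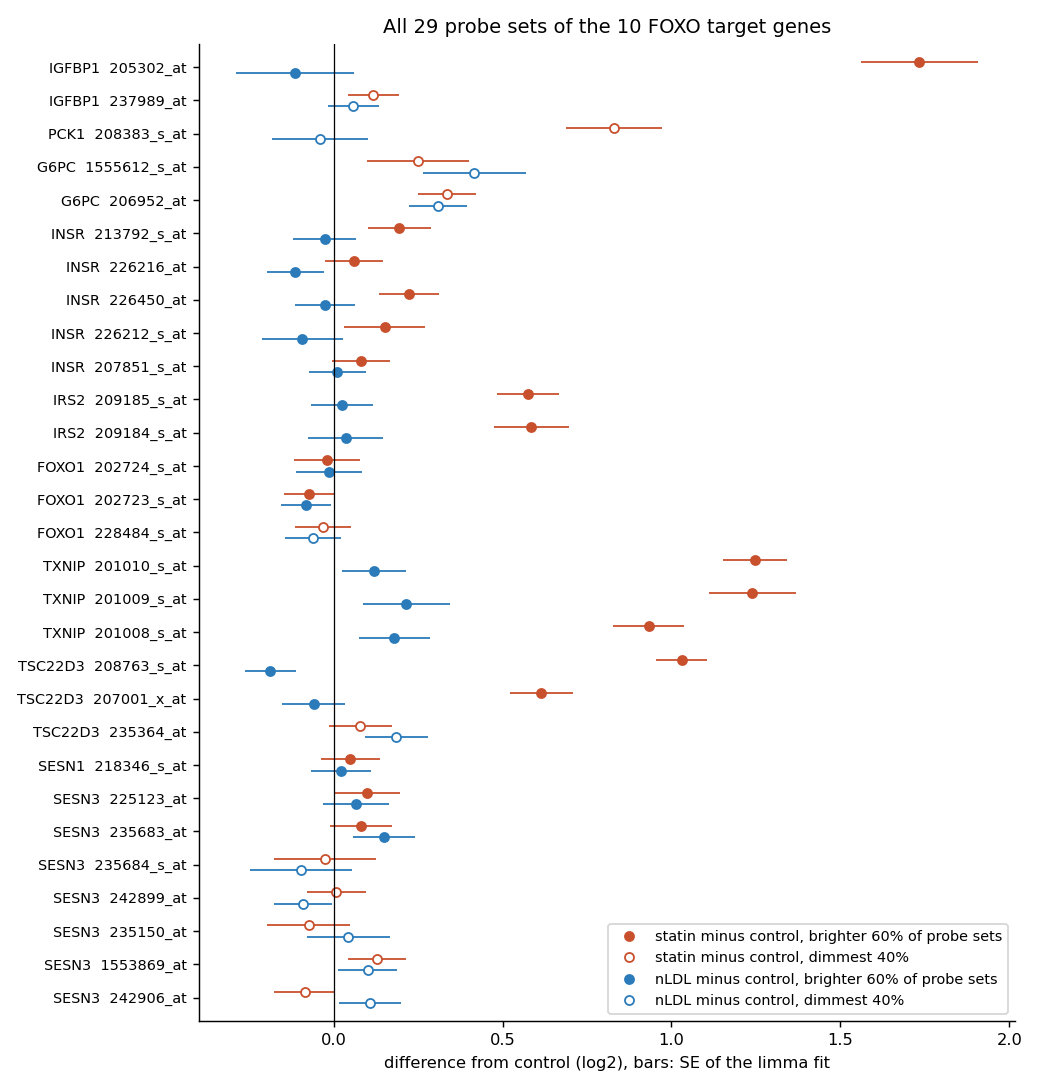
Statin minus control and nLDL minus control differences (log2) at each of the 29 member probe sets, grouped by gene, with bars of 1 SE and open points for dim probe sets. The largest statin differences are 1.73 (IGFBP1) and 1.25 (TXNIP), and several dim probe sets lie near 0.

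Leaving out single arrays moved the counts past the threshold more than the sizes for the 5 genes that stood higher with statin. Over the 6 fits without 1 array the difference was 1.60 to 1.87 for IGFBP1, 1.21 to 1.29 for TXNIP, 1.01 to 1.05 for TSC22D3, 0.63 to 1.03 for PCK1 and 0.50 to 0.65 for IRS2. The small differences were less steady: INSR ranged from 0.09 without the first statin array to 0.30 without the second, and SESN1 (-0.02 to 0.12), SESN3 (-0.01 to 0.21) and FOXO1 (-0.08 to 0.04) took either sign. As a description, 0 of the 29 member probe sets passed by limma without either control array, where 10 had an unadjusted p under 0.05 and 45 of all 54613 passed. Without the first statin array 2 passed (1 each of TXNIP and TSC22D3) beside 103 of all, without the second 4 passed (3 of TXNIP, 1 of TSC22D3) beside 217, and without either nLDL array 5 passed beside 607.

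With nLDL none of the 10 genes differed from control past the threshold, by limma. Of their 29 probe sets 0 passed in nLDL against control by limma, 3 had an unadjusted p under 0.05, and 0 passed by the methods' t-test after adjustment. Over all probe sets 0.0% passed (0 of 54613, with a smallest adjusted p of 0.326), although 3357 had an unadjusted p under 0.05 and 58 passed with a trended robust prior. The median difference of the member probe sets was 0.02 (range -0.19 to 0.42), with 16 above and 13 below 0. Both nLDL arrays lay above both controls in 10 of the 29, beside 17.8% of all probe sets, and below both in 4, beside 18.2%.

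For the 5 genes that stood higher with statin, the nLDL differences were small and their intervals reached both signs, apart from TSC22D3. IGFBP1 differed by -0.11 (95% interval -0.52 to 0.29, adjusted p = 0.973). PCK1 differed by -0.04 (-0.38 to 0.30, adjusted p = 0.995) and IRS2 by 0.02 (-0.19 to 0.24, adjusted p = 0.995). TXNIP differed by 0.12 (-0.10 to 0.34, adjusted p = 0.914), with both nLDL arrays above both controls, the first of them by very little.

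TSC22D3 read lower on both nLDL arrays than on both control arrays, with a difference of -0.19 (-0.36 to -0.01, adjusted p = 0.806), and it did not pass after adjustment. Its dim probe set differed by 0.19 in the other direction. G6PC gave the largest nLDL difference of the members, 0.42 (0.06 to 0.77, adjusted p = 0.803), with 0.31 (0.11 to 0.51, adjusted p = 0.798) at its other probe set, and neither passed. Without 1 array the first of these ranged from 0.17 to 0.66. INSR differed by -0.03 (adjusted p = 0.995), FOXO1 by -0.01 (adjusted p = 0.997), SESN1 by 0.02 (adjusted p = 0.995) and SESN3 by 0.07 (adjusted p = 0.971). The intervals are not adjusted over all probe sets, and those of TSC22D3 and of both G6PC probe sets kept to a single sign. With 2 arrays a group, changes within the intervals that reached both signs could not be told from none.

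Statin against nLDL sets cells treated to deplete cholesterol against cells treated to enrich it. This contrast shares the statin arrays with the statin against control comparison and so is a description too. IGFBP1 lay higher by 1.85 (SE 0.17), TSC22D3 by 1.22 (SE 0.08), TXNIP by 1.13 (SE 0.09), PCK1 by 0.87 (SE 0.14) and IRS2 by 0.55 (SE 0.09). G6PC differed by -0.17 (SE 0.15) with no steady sign, since it was 0.08 without the second nLDL array and -0.41 without the first, and its other probe set differed by 0.03. Of the 29 probe sets 8 were past the threshold and higher, beside 1.04% of all probe sets (566 of 54613).

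Close relatives of the members, named whatever their values, mostly did not pass with statin. IGFBP1 was the only IGF binding protein measured that lay higher than control past the threshold. It was picked for its statin rise, so nothing is read from that. IGFBP3, the main carrier of insulin-like growth factors in blood, fell by 0.56 (SE 0.09, adjusted p = 0.0296). IGFBP3 read 7.78 and 7.71 in control and 7.19 on both statin arrays, so the groups did not overlap. The others ranged from -0.12 for IGFBP7 to 0.33 for IGFBP6 (adjusted p = 0.102). In statin against nLDL, IGFBP6 differed by 0.46 (adjusted p = 0.045) and IGFBP3 by -0.64 (adjusted p = 0.0195).

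PCK2, the mitochondrial form of the PCK1 enzyme, rose by 0.45 (SE 0.07, adjusted p = 0.0305), and G6PC3, a widely expressed relative of G6PC, differed by 0.04 (adjusted p = 0.806). IRS1, the other main adaptor of the receptor, differed by -0.19 (SE 0.08, adjusted p = 0.255). FOXO3 differed by 0.13 (adjusted p = 0.435) and FOXO4 by 0.10 (adjusted p = 0.633). IRS1 read 8.78 and 8.72 in control and 8.51 and 8.60 with statin, on the opposite side from IRS2.

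Among arrestin-related proteins like TXNIP, the dim ARRDC4 read 3.43 and 3.44 in control, 3.54 and 4.01 with nLDL, and 4.03 and 3.84 with statin, a statin difference of 0.50 (adjusted p = 0.144). ARRDC1, ARRDC2 and ARRDC3 differed by 0.18, 0.28 and -0.13. Among relatives of TSC22D3, TSC22D1 rose by 0.45 (SE 0.09, adjusted p = 0.0491), but the mean over its 4 probe sets differed by 0.05 (adjusted p = 0.768). TSC22D2 and TSC22D4 differed by -0.08 and 0.25, and SESN2, the sestrin most tied to stress, by 0.21 (adjusted p = 0.239).

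**Figure D3:**
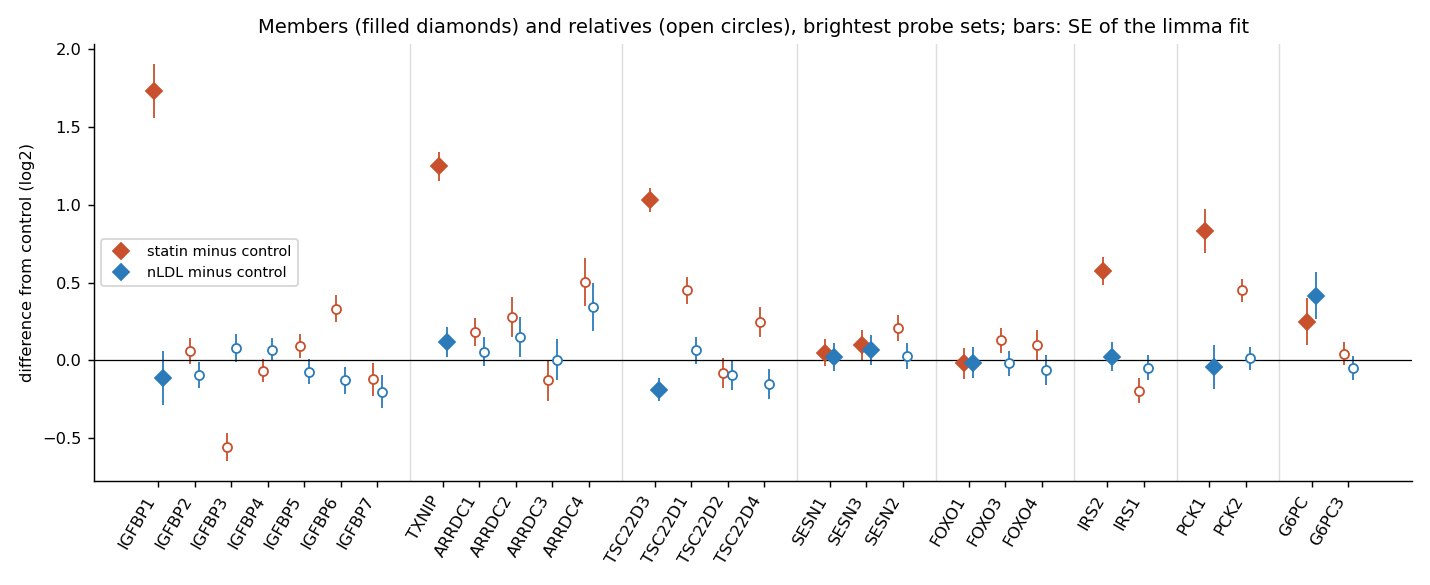
Differences from control (log2, bars of 1 SE) with statin (red) and nLDL (blue) for the members (diamonds) and their close relatives (circles), each at its brightest probe set. With statin IGFBP3 lies at -0.56 while IGFBP1 lies at 1.73, and TSC22D1 lies at 0.45 and TSC22D3 at 1.03.

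Around the members, 11 lists of related genes held 209 genes measured. Of these, 11 rose and 5 fell past the threshold with statin, beside 1.49% higher and 2.26% lower over all genes. Over all 54613 probe sets, dim ones included, 10271 had an unadjusted p under 0.05 by limma with statin. That share is the background for the unadjusted counts of each list below. The lists were chosen with earlier results of these arrays known, so nothing is read from these counts or from those below. The list of the insulin signalling chain also held genes beyond AKT, such as TSC1, MTOR and GSK3B. In it 0 of 33 genes passed by limma, 4 had an unadjusted p under 0.05, and the median difference was 0.03. The largest difference there was that of GRB14, an adaptor that inhibits the receptor, at -0.36 (SE 0.08, adjusted p = 0.0769).

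Of 20 FOXO proteins and regulators, 1 rose and 2 fell while 17 missed the threshold, and the list median was -0.10. SGK1, a kinase related to AKT that phosphorylates FOXO3, read 11.49 and 11.51 in control and 10.57 and 10.61 with statin and fell by 0.91 (SE 0.07, adjusted p = 0.0048). SKP2, part of a ubiquitin ligase that targets FOXO1, fell by 0.74 (SE 0.08, adjusted p = 0.00864). That value is from the brightest of its 3 probe sets, whose design may also match related transcripts. NR0B2, a nuclear receptor that represses gluconeogenic genes, rose by 0.75 (SE 0.07, adjusted p = 0.00803).

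Of 35 other FOXO targets, 3 rose, 0 fell and 32 did not pass, 12 of the 35 having an unadjusted p under 0.05, and the median was 0.09. CDKN1A, the cell cycle inhibitor p21, read 7.83 and 7.81 in control and 8.81 and 8.73 with statin and rose by 0.95 (SE 0.10, adjusted p = 0.00917). PIK3IP1, an inhibitor of the lipid kinase upstream of AKT, rose by 0.87 (SE 0.10, adjusted p = 0.0131). KLF6, a zinc finger factor, rose by 0.70 (SE 0.08, adjusted p = 0.0108).

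In glucose production and uptake, 1 of 27 genes rose, PCK2, and 1 fell. The latter was PFKFB3, an enzyme that drives glycolysis, which fell by 0.88 (SE 0.10, adjusted p = 0.012). In that list 22 genes lay above and 5 below control with statin, with a median of 0.18 beside 0.02 over all genes. By limma 11 of the 27 had an unadjusted p under 0.05. Of 20 factors that control gluconeogenic genes, NR4A2, an orphan nuclear receptor induced by cAMP, rose by 0.65 (SE 0.08, adjusted p = 0.0143), and FOXA1, a liver forkhead factor, fell by 0.54 (SE 0.09, adjusted p = 0.03). The NR4A2 probe set, the brightest of 3, may by its design also match related transcripts. By limma 7 of the 20 had an unadjusted p under 0.05, and the median was 0.01. In the IGF system IGFBP3 alone of 18 passed, and in sestrin and mTORC1 amino acid sensing 0 of 22 did by limma, 6 having an unadjusted p under 0.05. TFEB, a lysosomal factor that mTORC1 restrains, had the largest difference there, at 0.29 (adjusted p = 0.316).

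The other known inducers of TSC22D3 and TXNIP were covered by lists of glucocorticoid targets and of MondoA and ChREBP genes. Of 15 glucocorticoid targets, 1 rose, SGK1 fell as above and 13 did not pass. By limma 6 of the 15 had an unadjusted p under 0.05. Of 11 MondoA and ChREBP genes, which answer to glucose, RGS16, a regulator of G protein signalling, rose by 0.52 (SE 0.10, adjusted p = 0.0487), and the mean over its probe sets differed by 0.27 (adjusted p = 0.0764). The list medians were 0.04 and 0.20.

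Among genes of lipid metabolism listed as induced by insulin, 2 rose with statin. Of the 12, LPIN1, a phosphatidate phosphatase, rose by 0.70 (SE 0.08, adjusted p = 0.0122) and PNPLA3, a lipid droplet protein, by 0.49 (SE 0.08, adjusted p = 0.0342) with statin, and 10 did not pass. With nLDL all 12 differed below 0, with a median of -0.24 beside -0.002 over all genes, and 0 passed by limma. Of the 12, 7 had an unadjusted p under 0.05 by limma, as did 3357 of all 54613 probe sets. The list was chosen with earlier results of these arrays known, so nothing is read from its counts. LPIN1 differed by -0.41 and PNPLA3 by -0.46 with nLDL, both with an adjusted p of 0.798.

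Of the 17 calls that the naming rule gave outside the 10 genes, KRT19 included, 17 were lost without either control array, 16 without the first statin array (SGK1 stayed) and 11 without the second. PCK2, PNPLA3, RGS16 and TSC22D1 were lost in each of the 6 fits without 1 array.

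**Figure D4:**
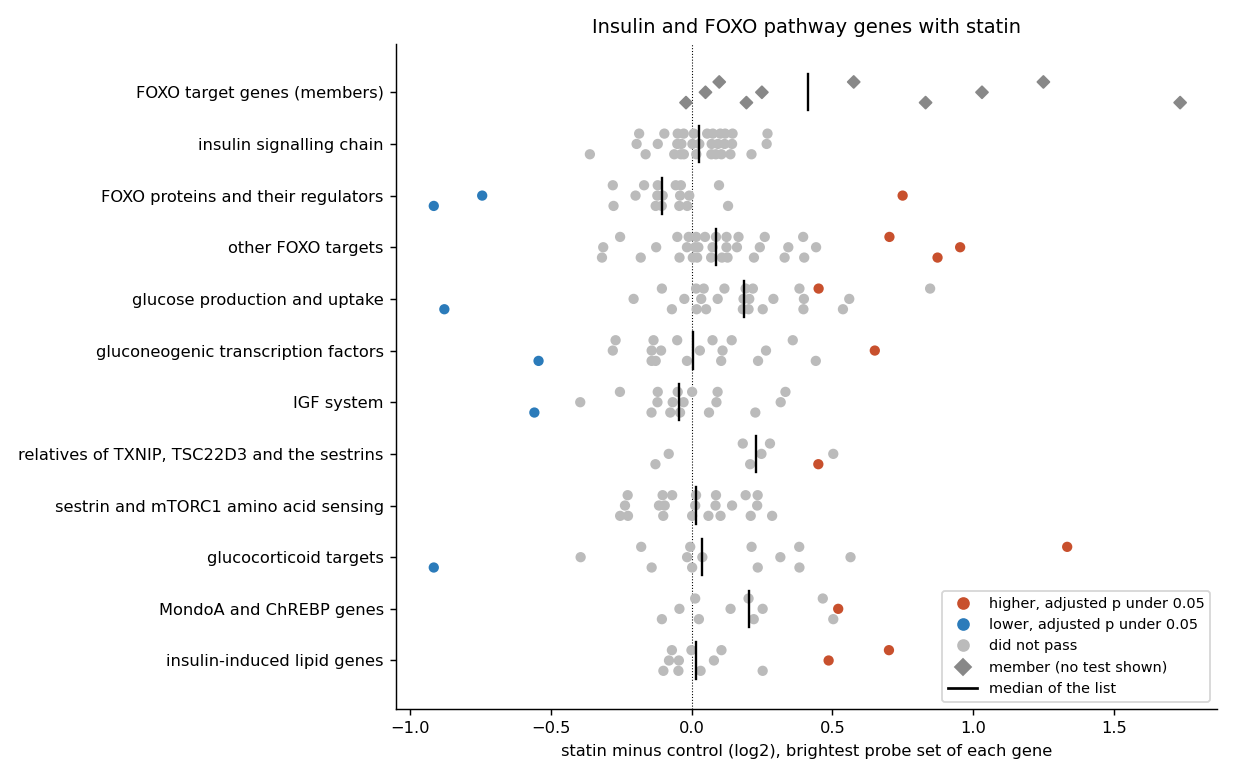
Statin minus control difference (log2) of every measured gene in each list, with genes past the threshold coloured, the 10 members as grey diamonds with no test, and the list median as a line. Most genes lie near 0, and those far from 0 include CDKN1A at 0.95 and SGK1 at -0.91.

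Over all 6 arrays, the 15278 genes whose brightest probe set was not dim were ranked by how closely their levels, centred on control, followed IGFBP1 or TSC22D3, as the root mean square gap on the log2 scale. Among the 5 closest to IGFBP1 were S100P (0.25), GDF15 (0.27), KLF2 (0.29) and RHOB (0.30), and TXNIP lay at 0.34. Closest to TSC22D3 were CLN8 (0.08), S100A9 (0.08), HAPLN4 (0.09), ISG20 (0.10) and GPX2 (0.10), with TXNIP at 0.23. With 6 arrays in 3 groups this measure mostly reads the size of the statin and nLDL differences.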

How the data were processed

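Total RNA of Huh7 cells was hybridised to Affymetrix U133 Plus 2.0 arrays, 2 per group, which the labels call biological replicates. The authors normalised the arrays in GeneSpring GX, and the deposited values are log2 levels per probe set from robust multi-array averaging. A second deposited table, used for the gene symbol annotation, held 6 columns of values under headers that fit none of the labels. These were not used, and they equalled the series table in all 54675 probe sets. Of 54613 probe sets, after 62 controls were left out, 43383 had 1 symbol, 1663 several and 9567 none, and RefSeq (GRCh38.p14) held the gene numbers of 42702.

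Means of the 3 groups were fitted with limma 3.58.1 in R 4.3.3 (lmFit, eBayes, two-sided, 3 residual and 4.08 prior degrees of freedom), with Benjamini-Hochberg adjustment over all probe sets at 0.05. Both treatments share the control arrays. An exact permutation test of 2 against 2 cannot go below a two-sided p of 0.333, so none was run. Array values carry no counting depth, so precision is limited by how many arrays there were. The procedure was tested on simulated data.

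The 10 genes and all lists were chosen with earlier results of these data known. Named were the 10 genes and their close relatives, up to 4 passing genes of each list or its largest difference, the 2 largest nLDL differences of list genes at an unadjusted p under 0.05, and the 5 genes nearest IGFBP1 and TSC22D3. Some genes named by that rule are not reported here, though counts and plots include them. Alternatives were array centring, quantile normalization, a replicate block, a trended robust prior, a filter on dim probe sets, a 1.5-fold minimum, the compared groups alone, the mean over probe sets, the methods' t-test and leaving out each array.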

Additional observations from a re-analysis of the deposited data

How the results depend on the processing

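The statin minus control differences of the 10 genes kept their direction with array centring, quantile normalization and the replicate block, except that of FOXO1, which was 0.0188 with quantile normalization. For statin against control 1429 probe sets passed, beside 607 with the compared groups alone, 0 by the methods' t-test after adjustment, 4954 with a trended robust prior, 2745 without the dimmest 40%, 694 with a 1.5-fold minimum, and 45 to 607 without 1 array. The 9 member probe sets became 5 with the compared groups alone, 0 by the methods' t-test and 0 to 5 without 1 array. For nLDL against control the trended robust prior called 58. For statin against nLDL 1334 passed, beside 458 with the groups alone, 2 by the t-test, 4464 with the trended prior, 2367 without the dimmest 40%, 707 with the fold minimum and 45 to 458 without 1 array, and its 8 member probe sets became 0 by the t-test and 2 to 7 without 1 array. With the replicate number as a block 820 passed for statin against control and 7 member probe sets remained past the threshold, IRS2 and TSC22D3 losing 1 each. Over all probe sets, same-numbered arrays deviated together with correlations of 0.05, 0.02 and 0.09. With 2 arrays a group, these cannot tell whether same-numbered arrays were handled together. Of the 17 other named calls the block lost 5, centring 2 and quantile normalization 1.

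Small nLDL differences changed sign when 1 array was left out. IGFBP1 ranged from -0.37 to 0.15 (0.0188 without control 2, 0.15 without nLDL 1), PCK1 from -0.24 to 0.16 (0.16 without control 2, 0.05 without nLDL 1), IRS2 from -0.0404 to 0.0901 (below 0 without control 1 and without nLDL 2), FOXO1 from -0.12 to 0.088 (above 0 without control 1 and without nLDL 1) and SESN1 from -0.0517 to 0.0951 (below 0 without control 2 and without nLDL 2). With quantile normalization INSR turned to 0.0048 and FOXO1 to 0.0045. With statin SESN1 turned to -0.0239 without control 2, SESN3 to -0.0118 without statin 2, and FOXO1 to 0.0369 without control 1 and 0.0272 without statin 2. Among relatives ARRDC3 ranged from -0.27 to 0.0145 (above 0 without statin 1), IGFBP7 from -0.25 to 0.0083 and IGFBPL1 from -0.0746 to 0.0183 (above 0 without control 2), and TSC22D2 from -0.16 to 0.0019 (above 0 without statin 1), with 0.0164 as the mean over its probe sets. The cause was not tested. With 2 arrays a group, the array number limits every call.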
